A study of Homo sapiens with 6 samples.

Results

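The integrated stress response genes described here are 9 factors and effectors known to act with or after ATF4, namely ATF3, ATF5, DDIT3, CEBPB, CEBPG, CHAC1, PPP1R15A, NUPR1 and ADM2. They were chosen by name, with earlier results of these data known, and each symbol matched 1 Ensembl identifier among the 61496 features of the deposited tables. The RNA came from U251, an established human glioma cell line grown in serum-containing medium. Untreated cells (control, 3 libraries) were set against cells exposed for 2 h to sevoflurane (Sev, 3 libraries), a volatile anesthetic. The sequenced comparison was of 5.1% Sev with control, although the labels, whose protocol also names 1.7% and 3.4%, give no concentration for a library. Nothing in the labels says that the libraries came from separate cultures, so p-values measure the spread between these libraries only. The libraries held between 38624292 and 46318311 counts. All 8 glioma and astrocyte markers checked were detected, with a summed level, mostly of VIM, of 7889 to 8791 CPM in control and 8948 to 9438 CPM in Sev libraries (read counts scaled to a common library size, with the TMM method of edgeR). By the test used below, CD44 and EGFR were higher and S100B and SOX2 were lower in Sev. That is 25% each way, near the 22.1% and 21.5% of all tested features. The call of EGFR (0.27 on the log2 scale) was lost when scaled by library size only (0.13, edgeR adjusted p = 0.302). The 8 markers of immune, endothelial, epithelial, neuronal and oligodendrocyte cells summed to 10.1 to 12.1 CPM in control and 13.0 to 15.9 CPM in Sev libraries. None of the 8 was at 0 in all libraries. Of the 5 tested, 2 were higher (MBP, from 2.51 to 5.06 CPM, and PECAM1, from 0.693 to 1.31 CPM) and 0 were lower. Over all tested features 22.1% were higher and 21.5% were lower. The part of such cells in the results was not tested.

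In the integrated stress response, kinases that sense amino acid shortage, unfolded protein, double-stranded RNA or heme shortage phosphorylate the translation factor eIF2. General translation then slows, while the mRNA of ATF4 is translated more. ATF4, a basic leucine zipper (bZIP) transcription factor, binds DNA with C/EBP partners and raises the genes of amino acid supply, of further transcription factors and, when the stress lasts, of cell death. Among the 9 genes, ATF3, ATF5, DDIT3, CEBPB and CEBPG encode bZIP factors. NUPR1 encodes a small stress-induced chromatin protein. CHAC1 encodes an enzyme that breaks down glutathione, PPP1R15A encodes the subunit that directs a phosphatase back to eIF2, and ADM2 encodes a secreted peptide of the adrenomedullin family.

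RefSeq promoter windows (GRCh38.p14, 250 bases before to 50 bases after each start) were found for 8 of the 9 genes, all except NUPR1. The letters of a C/EBP-ATF response element, TGATGNAAN on either strand, were present in windows of 3 of these 8 genes in 3.61% of all 35116 windows and for 4.45% of the 27305 genes with a window. The stricter form TTGCATCA, a part of the same element, was present for 2 of the 8 and in 0.866% of windows, which belong to 295 of the 27305 genes. The sequences that hold them are shown with the matching letters in capitals, because ATF4 dimers are known to bind such letters. In CHAC1 and CEBPG the match is the stricter form. The match lies 210 bases before the RefSeq start in CHAC1 (chr15:40953250-40953279, in an exon of GENCODE 29), 42 bases before 1 of 2 starts in CEBPG (chr19:33373993-33374112) and 191 bases before 1 of 2 starts in ATF3 (chr1:212565160-212565279), all on the plus strand.
CHAC1: cctcccctgccGTTGCATCActcctgccag
CEBPG: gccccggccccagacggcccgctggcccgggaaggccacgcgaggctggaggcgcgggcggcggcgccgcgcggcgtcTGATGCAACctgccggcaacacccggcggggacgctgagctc
ATF3: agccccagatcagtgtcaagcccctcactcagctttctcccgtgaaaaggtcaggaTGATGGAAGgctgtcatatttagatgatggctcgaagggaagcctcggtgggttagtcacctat

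The cyclic AMP response element TGACGTCA, bound by CREB and ATF factors, was present for PPP1R15A alone of the 8 genes and for 2.25% of all genes (1.85% of windows). It lies 58 bases before the start, in the stretch chr19:48872272-48872391 on the plus strand. The AP-1 letters TGANTCA, bound by FOS and JUN dimers, were present for ATF5 and DDIT3 and for 9.37% of all genes (7.71% of windows). The ATF5 stretch is chr19:49928706-49928735 on the plus strand, in an exon, and the DDIT3 stretch is chr12:57520744-57520767 on the minus strand. The ER stress element was in no window of the 8 genes and for 0.0916% of all genes (0.0769% of windows), and the windows of CEBPB and ADM2 held none of the letters searched, which says only that these letters are not in those windows. The capitals mark the match.
PPP1R15A: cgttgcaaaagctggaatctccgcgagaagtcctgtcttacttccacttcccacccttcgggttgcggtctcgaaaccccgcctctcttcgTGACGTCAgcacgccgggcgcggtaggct
DDIT3: cgcgcgcgcgcaTGACTCAcccac
ATF5: gggagagtgctgTGACTCAtgctggactct

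The comparison of Sev-treated with control cells asked which of these genes differed after a 2 h exposure. The time of RNA extraction after the exposure is not given in the sources used here. Of the 9 genes, all of which passed the filter on low counts (ADM2, at 0 in control, only through the Sev libraries), 8 were higher in Sev and 0 were lower, and CEBPB did not pass the test. These calls are by edgeR's quasi-likelihood test, fitted on 27514 features, with a Benjamini-Hochberg adjusted p-value under 0.05. The log2 fold change of Sev over control is written log2 FC, with its standard error (SE). By the same rule 22.1% of all tested features were higher and 21.5% were lower, and of the 15189 protein-coding genes tested 25% were higher and 21% were lower. Those 8 genes had every Sev library above every control library, as had 28.3% of all features and 31.2% of protein-coding genes, while 28.2% and 26.6% had every Sev library below. With a log2 fold change over 1 and an unadjusted p-value under 0.05, the threshold of the study's methods, 4 of the 9 were higher (ADM2, CHAC1, ATF5 and DDIT3), and 0 were lower, against 11.4% higher and 12% lower over all features and 9.07% higher and 7.62% lower over protein-coding genes. With at least 10 counts required in every library, ADM2 was not tested, and of the other 8 genes 7 were higher and 3 passed that threshold. Scaled by library size only, the median of all features moved to −0.147, the calls over all features split into 17% higher and 27.3% lower, and 7 of the 9 were higher and 0 lower. With that scaling, DDIT3 was at 0.93 on the log2 scale and left the 4 genes over 1, as it also did without control replicate 1 (0.96). The median log2 fold change was 0.81 for the 9 genes and −0.0056 for all features tested. Because the 9 genes were chosen with earlier results of these data known, setting them beside all features is not a test. In bulk RNA, a change in a part of the cells and a smaller change in every cell cannot be told apart.

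**Figure D1:**
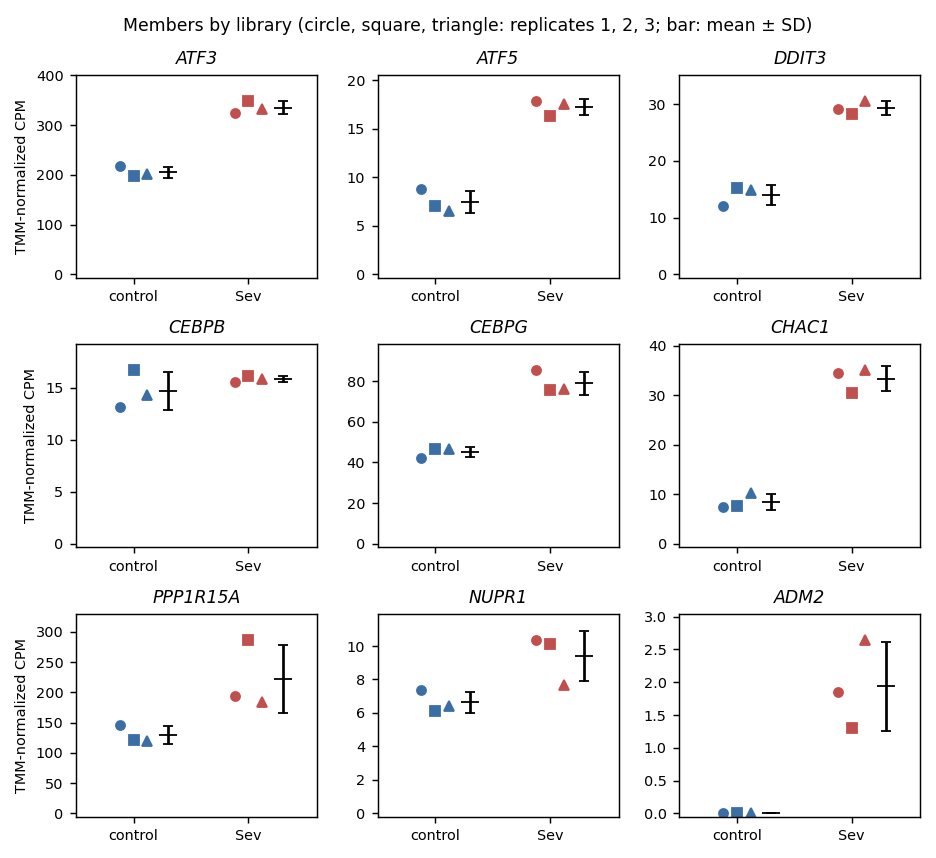
TMM-normalized CPM of each of the 9 genes (vertical axes, each from 0) in the 3 control and 3 Sev libraries, with symbols for the replicates and a bar for the mean ± SD. The groups are apart for every gene except CEBPB, and ADM2 was at 0 in the 3 control libraries.

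DDIT3 (CHOP), a bZIP factor known to favor cell death when stress persists, rose 2.10-fold. Its gene (ENSG00000175197) lies on chromosome 12, 57516588 to 57521737, minus strand (GRCh38). The CPM values were 11.99, 15.1 and 14.8 in control and 29.1, 28.2 and 30.6 in Sev libraries. Every Sev library was therefore above every control library, and the spread within each group was small. The group means were 14.0 ± 1.74 CPM (SD, n = 3) and 29.3 ± 1.22 CPM (SD, n = 3), with a log2 FC of 1.07 (SE 0.12, edgeR adjusted p = 0.00049). On the opposite strand, 27.2% of its exon length is shared with MARS1, which had a log2 FC of 0.055 (SE 0.081, edgeR adjusted p = 0.611). Whether the counting used the strand is not given in the sources used here. MIR616, a microRNA gene that lies in an intron of DDIT3 on the same strand, had 38 to 69 counts in control and 76 to 103 counts in Sev libraries (log2 FC 0.98, SE 0.28, edgeR adjusted p = 0.023). Reads of MIR616 cannot be told apart from reads of the DDIT3 intron around it, so a rise of the microRNA itself was not shown.

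ATF3, a bZIP factor that is induced early by many stresses and often represses transcription, had the highest mean FPKM (a level per gene length) of the 9 in both groups. Its gene (ENSG00000162772) covers chromosome 1, 212565334 to 212620777, plus strand. It was measured at 218, 197 and 202 CPM in control and 324, 349 and 333 CPM in Sev libraries. The groups did not overlap, and the rise was 1.63-fold. The means were 206 ± 11.1 and 335 ± 12.8 CPM (SD, n = 3 each), with a log2 FC of 0.71 (SE 0.077, edgeR adjusted p = 0.00043).

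ATF5, whose mRNA is translated under stress in the same way as that of ATF4, rose 2.32-fold. The gene (ENSG00000169136) lies on chromosome 19, 49928702 to 49933935, plus strand. Control libraries had 8.75, 7.04 and 6.53 CPM, and Sev libraries had 17.9, 16.3 and 17.6 CPM. The lowest Sev library was well above the highest control library. The means were 7.44 ± 1.16 and 17.3 ± 0.844 CPM (SD, n = 3 each), with a log2 FC of 1.22 (SE 0.14, edgeR adjusted p = 0.00059). NUP62, on the opposite strand, shares 21.2% of the exon length of ATF5, and its log2 FC was −0.11 (SE 0.20, edgeR adjusted p = 0.699). IL4I1, also on the opposite strand, shares 2.5% and had 27 to 80 counts per library, with a log2 FC of 1.28 (SE 0.24, edgeR adjusted p = 0.0044).

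Of the 2 C/EBP factors, CEBPG, a short C/EBP protein that pairs with ATF4, rose, and CEBPB, a C/EBP factor of inflammation and differentiation, did not pass the test. CEBPG (ENSG00000153879, chromosome 19, 33373330 to 33382686, plus strand) had 42.1, 46.8 and 46.4 CPM in control and 85.5, 75.5 and 76.0 CPM in Sev libraries. Its groups were far apart, at 45.1 ± 2.61 and 79.0 ± 5.62 CPM (SD, n = 3 each). The log2 FC was 0.81 (SE 0.090, edgeR adjusted p = 0.00048). CEBPB (ENSG00000172216, chromosome 20, 50190734 to 50192689, plus strand) had 13.1, 16.7 and 14.2 CPM in control and 15.5, 16.1 and 15.8 CPM in Sev libraries. The 3 Sev values lay inside the range of the control values. The log2 fold change of CEBPB was 0.10 (SE 0.12, edgeR adjusted p = 0.521), and it was −0.035 when scaled by library size only and −0.029 to −0.032 on the FPKM scales.

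The ratio of CEBPG to CEBPB counts within a library does not depend on the scaling. For every 100 counts of CEBPB there were 320, 281 and 325 counts of CEBPG in control and 551, 469 and 482 in Sev libraries, a ratio 1.62 times as high. The groups did not overlap (exact permutation test, two-sided p = 0.1, the smallest that 3 libraries against 3 allow). CEBPB-AS1, an antisense RNA gene that shares 11.8% of the exon length of CEBPB, rose while its partner did not pass the test. It had 26, 35 and 50 counts in control and 97, 118 and 145 counts in Sev libraries. That is a log2 FC of 1.88 (SE 0.26, edgeR adjusted p = 0.0011). Without a stated strand setting, reads of CEBPB and CEBPB-AS1 cannot be told apart where they overlap.

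CHAC1, the glutathione-degrading enzyme, had the largest measured fold change among the 8 genes that were detected in control cells. The gene (ENSG00000128965) lies on chromosome 15, 40952962 to 40956519, plus strand. It had 7.47, 7.72 and 10.3 CPM in control and 34.5, 30.4 and 35.1 CPM in Sev libraries. No Sev library came near the highest control library. The means were 8.51 ± 1.59 and 33.3 ± 2.54 CPM (SD, n = 3 each), with a log2 FC of 1.97 (SE 0.15, edgeR adjusted p = 0.00013), which is 3.91-fold. CHAC2, a related enzyme with weaker activity on glutathione, was at 1.79 to 1.89 CPM in control and 1.38 to 2.15 CPM in Sev libraries. Its log2 FC of −0.045 (SE 0.22, edgeR adjusted p = 0.883) was within the spread, and there were 4.12 times as many CHAC1 counts per CHAC2 count in Sev as in control libraries.

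PPP1R15A (GADD34), the stress-induced subunit of the eIF2 phosphatase, rose 1.72-fold. The gene (ENSG00000087074) lies on chromosome 19, 48872392 to 48876057, plus strand. Control libraries had 146, 122 and 120 CPM, and Sev libraries had 194, 287 and 185 CPM. The groups did not overlap, but Sev replicate 2 stood above the other 2 Sev libraries. The means were 129 ± 14.4 and 222 ± 56.5 CPM (SD, n = 3 each), with a log2 FC of 0.78 (SE 0.17, edgeR adjusted p = 0.0087) and of 0.56 without Sev replicate 2 (adjusted p = 0.0067). PPP1R15B, the constitutive subunit of the same phosphatase, also rose, from 125, 133 and 126 CPM to 215, 223 and 201 CPM (log2 FC 0.73, SE 0.076, edgeR adjusted p = 0.00036). The count ratio of PPP1R15A to PPP1R15B was 101.1% ± 13.4 in control and 103% ± 21.6 in Sev libraries (SD, n = 3 each), and the groups overlapped.

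NUPR1 and ADM2 had the lowest mean FPKM of the 9. NUPR1 (ENSG00000176046, chromosome 16, 28532708 to 28539174, minus strand) had 7.35, 6.13 and 6.43 CPM in control and 10.4, 10.1 and 7.67 CPM in Sev libraries. Sev replicate 3 was only slightly above control replicate 1. The log2 FC was 0.50 (SE 0.16, edgeR adjusted p = 0.039), and the call was lost in 11 of 15 other settings, among them 5 of the 6 fits that left out 1 library. Over those 6 fits the adjusted p ran from 0.016 to 0.125, and the call held only without Sev replicate 3. NUPR2, its paralog, had at most 4 counts in a library and was not tested.

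ADM2 (ENSG00000128165, chromosome 22, 50481556 to 50486440, plus strand) had 0 counts in each of the 3 control libraries. It had 70, 49 and 105 counts in the Sev libraries, or 1.86, 1.30 and 2.65 CPM. Against a floor of 3 counts per control library (0.0618 to 0.0757 CPM), ADM2 was at least 27.9-fold higher in Sev (at least 4.80 on the log2 scale). Since ADM2 passed the low-count filter through the Sev libraries alone, it had to differ, and its p-value is not given as support. At this depth, absence of ADM2 from control cells was not shown, only a level under that floor. ADM, the better known peptide of the family, was present in both groups and rose, with 14.7, 15.5 and 13.8 CPM in control and 28.5, 43.7 and 20.1 CPM in Sev libraries (log2 FC 1.07, SE 0.25, edgeR adjusted p = 0.011). The call of ADM was lost with log2(FPKM + 1) without a filter (adjusted p = 0.0588).

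**Figure D2:**
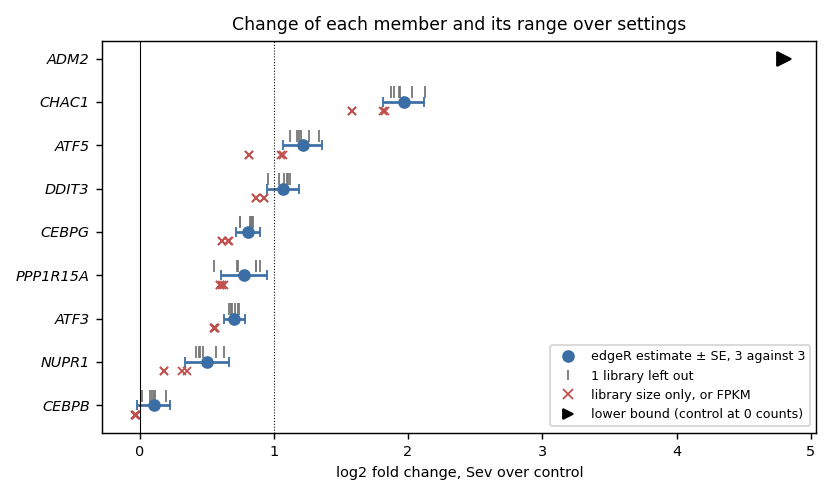
Log2 fold change of each gene, Sev over control (horizontal axis, dotted line at 1), as the edgeR estimate ± standard error, with the estimates of fits that left out 1 library (grey ticks) and of those scaled by library size only or made from FPKM (red crosses). CHAC1 stood at 1.97 and CEBPB at 0.10 beside 0, the red crosses lie to the left of the estimates, and ADM2 is drawn at its lower bound of 4.80.

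Levels between genes were compared on the deposited FPKM, which divide the counts by gene length. That length worked out at 7034 bases for NUPR1, the longest of the 9, so the place of NUPR1 depends on it. Which transcripts of each gene the cells used was not tested. In control cells the order was ATF3 (43.3 ± 3.25 FPKM), PPP1R15A (35.9 ± 4.73), CEBPG (9.43 ± 0.371), DDIT3 (9.06 ± 0.963), CEBPB (6.77 ± 0.706), CHAC1 (3.52 ± 0.645), ATF5 (2.17 ± 0.384), NUPR1 (0.991 ± 0.117) and ADM2 at 0 (SD, n = 3). Of the neighbors in this order, ATF3 and PPP1R15A overlapped between libraries, and so did CEBPG and DDIT3. In Sev-treated cells CHAC1, at 12.5 ± 1.35 FPKM, stood above CEBPB, at 6.599 ± 0.185 FPKM, and DDIT3 (17.3 ± 1.30) stood beside CEBPG (15.0 ± 1.20), again with overlap. ATF3 and PPP1R15A kept the top places, at 63.9 ± 1.87 and 55.4 ± 12.3 FPKM, and overlapped. ATF5, NUPR1 and ADM2 kept the last places, with 4.58 ± 0.355, 1.26 ± 0.174 and 0.348 ± 0.132 FPKM.

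**Figure D3:**
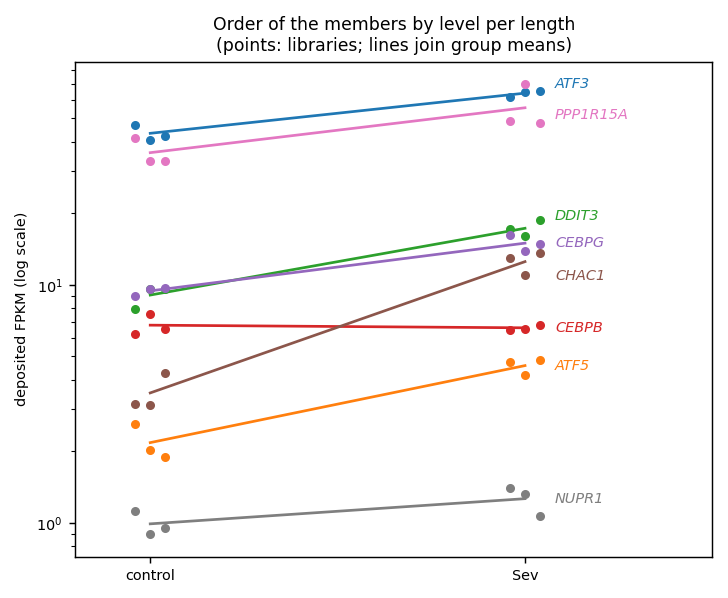
Deposited FPKM (vertical axis, log scale) of the 8 genes detected in both groups, with points for libraries and lines that join the group means. CHAC1 crosses CEBPB between control (3.52 against 6.77 FPKM) and Sev (12.5 against 6.599 FPKM), and ADM2 is left out because a value of 0 has no place on a log axis.

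ATF4 itself rose from 187, 173 and 177 CPM to 372, 411 and 349 CPM, a log2 FC of 1.076 (SE 0.086, edgeR adjusted p = 0.00015). Set against ATF4 within each library, a ratio that is free of the scaling, the 9 genes lay on both sides of their control level. Because ATF4 rose, the median feature had a ratio 0.473 times that of control, with every Sev library below every control library for 74.9% of all features and 80.2% of protein-coding genes, and above for 5.74% and 4.48%. CHAC1 had 3.997, 4.47 and 5.83 counts per 100 counts of ATF4 in control and 9.26, 7.41 and 10.1 in Sev libraries, 1.87 times as many. CEBPB went the other way, from 7.03, 9.66 and 8.04 to 4.17, 3.92 and 4.52, or 0.51 times its control ratio, close to the median feature. ATF3 also had fewer counts per ATF4 count, 117, 114 and 114 per 100 in control and 87.1, 85.0 and 95.2 in Sev libraries, and NUPR1 had 3.55 to 3.93 in control and 2.20 to 2.79 in Sev libraries. The ratios of ATF3 (0.776 times control) and NUPR1 (0.67 times) lay above that of the median feature. These 4 genes did not overlap between the groups, nor did ADM2, with 0 in control and 0.317 to 0.759 per 100 in Sev libraries. DDIT3, with 7.85 ± 1.26 and 7.82 ± 0.9504 per 100, ATF5, CEBPG and PPP1R15A overlapped. An exact permutation test gave p = 0.1 for each of CHAC1, CEBPB, ATF3 and NUPR1, the smallest p that it can give, and 0.2 to 1 for the 4 genes that overlapped. For ADM2, which passed the filter through the Sev libraries alone, no p is given.

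**Figure D4:**
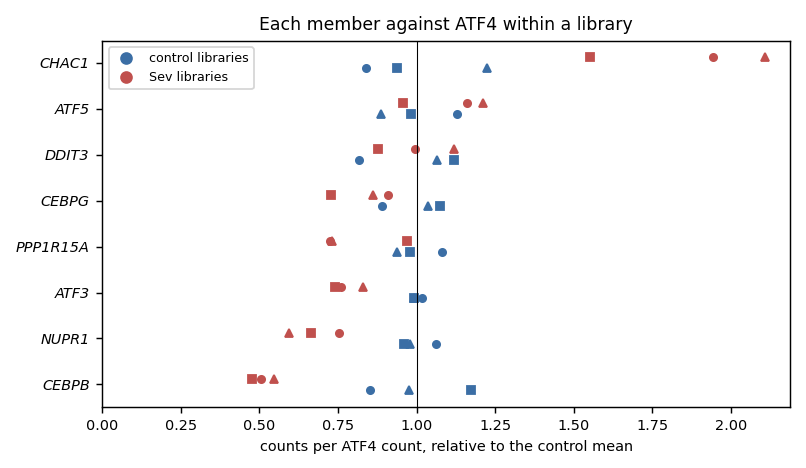
Counts of each gene per count of ATF4 in the same library, divided by the mean of the control libraries (horizontal axis from 0), for 8 genes, with blue for control and red for Sev libraries. CHAC1 lies to the right of 1 in the 3 Sev libraries, CEBPB, NUPR1 and ATF3 lie to the left, as do 74.9% of all features, and the other 4 overlap with control.

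The other genes of the pathway moved in both directions. Of 49 further genes known as integrated stress response targets, 47 were tested, of which 18 rose and 7 fell by the adjusted p-value. That is 38.3% higher and 14.9% lower, beside 22.1% and 21.5% of all features, with a median log2 fold change of 0.26. The counts were 15 and 9 with library size only, and 13 and 11 with log2(FPKM + 1) without a filter. SLC7A1, a transporter of cationic amino acids, rose from 168 ± 12.3 to 406 ± 5.14 CPM (SD, n = 3 each), and SESN2, an inhibitor of mTORC1 signaling, from 18.2 ± 1.25 to 45.1 ± 9.21 CPM. DDIT4, another mTORC1 inhibitor, and AARS1, the alanyl-tRNA synthetase, fell by 3.06 and 0.91 on the log2 scale. Split by role after the values were seen, 5 of 8 amino acid transporters and 6 of 12 aminoacyl-tRNA synthetases were higher, with 0 and 2 lower. Of 12 enzymes of amino acid and one-carbon metabolism, 1 was higher (MTHFD2) and 1 was lower (PSPH). With library size only, SLC1A5 and IARS1 lost their calls, leaving 4 transporters and 5 synthetases higher, and 2 of these enzymes were lower. ASNS, the asparagine synthetase that is a textbook target of ATF4, was among the 10 that did not pass, at 34.1 ± 3.28 and 37.6 ± 3.48 CPM (log2 FC 0.14, SE 0.11, edgeR adjusted p = 0.344), and TRIB3, a pseudokinase that restrains ATF4, rose by 0.64 on the log2 scale (SE 0.15, edgeR adjusted p = 0.011), a call lost with log2(FPKM + 1) without a filter (adjusted p = 0.0588). Both were named after their values were seen.

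The machinery upstream, a list of 22 genes that includes ATF4, had 10 higher (45.5%, beside 22.1% of all features) and 3 lower (13.6%, beside 21.5%), with a median log2 fold change of 0.050. With library size only these counts were 7 and 5. PPP1R15B and ATF4 had the smallest p-values among the higher genes. OMA1, a mitochondrial protease that relays mitochondrial stress to the pathway, fell from 11.0 ± 0.674 to 3.14 ± 0.830 CPM (log2 FC −1.81, SE 0.20, edgeR adjusted p = 0.000501). PPP1CB, a catalytic subunit of the phosphatase, fell from 1168 ± 3.84 to 974 ± 31.7 CPM, a call that was lost without control replicate 3, without Sev replicate 1 and with a replicate block (adjusted p 0.0612 to 0.0931). Of the 4 eIF2 kinases, EIF2AK2 was higher by 0.29 on the log2 scale (edgeR adjusted p = 0.023) and the other 3 did not pass the test. The call of EIF2AK2 was lost in 8 of 15 alternatives, among them scaling by library size only (log2 FC 0.15, adjusted p = 0.215) and 3 fits that left out 1 library (replicate 1 or 3 of control, or 3 of Sev).

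A list of 35 other genes of the ATF, CREB, C/EBP, AP-1, MAF and related bZIP families included CEBPZ, which has the family's name but no leucine zipper. Of its 32 tested genes 12 were higher (37.5%, beside 22.1% of all features) and 7 were lower (21.9%, beside 21.5%, so near the background), with a median log2 fold change of 0.13. When 1 library was left out, 10 to 13 were higher and 3 to 6 were lower, with the fewest lower without Sev replicate 1. Without CEBPZ 11 of 31 were higher and 7 were lower, and with library size only the 32 genes split into 10 higher and 9 lower. BATF2, counted among the 12, had 5, 6 and 0 counts in control and 17, 34 and 23 counts in Sev libraries. It passed the low-count filter through the Sev libraries alone. With at least 10 counts required in every library, 11 of 31 were higher and 7 were lower. FOSL1, an AP-1 subunit, rose from 16.3 ± 2.77 to 86.4 ± 9.46 CPM (log2 FC 2.41, SE 0.15, edgeR adjusted p = 6.67e-05). CREB5 rose from 49.3 ± 3.49 to 115 ± 11.4 CPM. CREB1 and ATF2, which bind cyclic AMP response elements, fell by 0.91 and 0.42 on the log2 scale. Of the 12 relatives of CHAC1, NUPR1, PPP1R15A and ADM2, which include the receptor genes of ADM2, 8 were tested. PPP1R15B, ADM and RAMP1 were higher (37.5%, beside 22.1% of all features) and 1 was lower (12.5%, beside 21.5%), with a median of 0.16. With at least 10 counts required in every library, 2 of 6 were higher and 1 was lower. The lower gene, named after its values were seen, was GGACT, an enzyme that acts on gamma-glutamyl amines, with a log2 FC of −1.09 (SE 0.32, edgeR adjusted p = 0.025). Its call was lost in the fits that left out replicate 1 or 3 of control or replicate 1 of Sev (adjusted p 0.0589 to 0.0812). RAMP1, a receptor subunit also named after its values were seen, was under 1 CPM on average in both groups. It had 3, 0 and 6 counts in control and 21, 19 and 11 counts in Sev libraries. Like ADM2, RAMP1 passed the low-count filter through the Sev libraries alone, so its call is not given as support.

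Targets of XBP1 and ATF6, the arms of the unfolded protein response that run beside the kinase PERK, were compared as a further list of 15 genes. Of these 5 were higher (33.3%, beside 22.1% of all features) and 0 were lower, and the median was 0.081. When 1 library was left out, 2 to 5 of the 15 were higher. The fewest, 2, came without control replicate 2, a fit in which 19% of all features were higher. Each of the 3 FPKM fits left 1 higher. Scaled by library size only, the calls of DNAJB9, HSP90B1 and SDF2L1 were lost, and those of HSPA5 and ERN1 remained. HSPA5, the chaperone BiP, rose from 407, 447 and 431 CPM to 742, 728 and 794 CPM (log2 FC 0.82, SE 0.080, edgeR adjusted p = 0.0003), and ERN1, the sensor kinase IRE1, by 0.63 on the log2 scale, a call that was lost in the 3 FPKM fits. For no gene of this list was the log2 fold change over 1 or under −1 with a p-value under 0.05.

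The genes of these lists whose pattern over the 6 libraries was closest to each of the 9 were found by the root mean square difference of log2 CPM, centred on the control mean, over 122 tested genes. TEF was closest to ATF3 (0.074) and to PPP1R15A (0.18), SLC7A5 to DDIT3 (0.081), CREB5 to ATF5 (0.10), HSPA5 to CEBPG (0.079), SHMT2 to CEBPB (0.074) and CTH to NUPR1 (0.12). CHAC1 had no close neighbor, and the nearest, MAFF, was at 0.35. ADM2, which was at 0 in control, was 2.07 from its nearest gene, FOSL1. Its control level on this scale is set by the prior count of 2 added before the logarithm, so that distance is not a measured one.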

How the data were processed

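The authors deposited a table of read counts per gene and a table of FPKM for 6 libraries of U251 cells. The concentration of 5.1% Sev comes from the paper's description of the sequenced comparison. RNA was extracted with TRIzol and made into strand-specific libraries. The submitters' processing notes name bcl2fastq 2.19, featureCounts and hg18. The aligner and the counting settings are not given in the sources used here. For the 9 genes the deposited FPKM corresponded to counts divided by library total and by a length 1.14 to 1.25 times the merged GENCODE 29 exons, and this length varied by at most 1.17% between libraries. Among genes with few counts it varied more.

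Symbols were joined by Ensembl ID for 60295 of 61496 features, and positions come from GENCODE 29 (GRCh38), for 58457 features. Since 2107 features carry Ensembl numbers above the highest in GENCODE 29, whether the counts were made on hg18 is unsure. Counts were filtered with filterByExpr, scaled by TMM and tested with edgeR 4.0.16 (R 4.3.3) by glmQLFit and glmQLFTest on 27514 features, with Benjamini-Hochberg adjustment. FPKM gave the order of levels. Alternatives used DESeq2 1.42.0 and limma 3.58.1 on log2(FPKM + 1) and log2(FPKM + 0.1). The scripts were tested on simulated data. Depth was 38624292 to 46318311 counts per library.

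All 9 genes were named throughout, with ATF4. Of the lists of targets, eIF2 machinery, bZIP factors and XBP1 and ATF6 targets, the genes named were the 2 with the smallest p in each direction among those with an adjusted p under 0.05, with 4 fixed relatives (CHAC2, NUPR2, PPP1R15B and ADM) and the listed gene with the closest pattern to each member. ASNS, TRIB3, EIF2AK2, GGACT, RAMP1, BATF2, MTHFD2, PSPH, SLC1A5, IARS1, DNAJB9, HSP90B1, SDF2L1, the markers and the overlapping genes were named outside this rule. The share of all features for the ratio to ATF4 and the calls lost by listed genes were added after seeing the data. The members and lists were chosen with earlier results of these data known. The floor of 3 counts covers counting error only, while SDs and standard errors hold the spread between libraries.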

Additional observations from a re-analysis of the deposited data

How the results depend on the processing

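Of the 9 genes, or 8 where ADM2 was not tested, 6 to 8 were higher and 0 lower under every alternative run. Over all features these runs called 9.64% to 22.7% higher and 11.3% to 30% lower. ADM2, which had to differ, is counted wherever it was tested. CEBPB turned to a log2 fold change of −0.035 with scaling by library size only, of −0.029 with log2(FPKM + 1), filtered or not, and of −0.032 with log2(FPKM + 0.1), and did not pass the test in any of them. Genes over 1 on the log2 scale numbered 1 with log2(FPKM + 1), filtered or not, and 2 with log2(FPKM + 0.1), against 4, and 3 to 4 when 1 library was left out. DDIT3 was under 1 in all of these FPKM fits, with scaling by library size only and without control replicate 1 (0.864 to 0.959), ATF5 with log2(FPKM + 1), filtered or not (0.819), and ADM2 with log2(FPKM + 1) without a filter (0.426). The FPKM fits differ in scaling, pseudocount and test, and the cause was not tested. ADM2 was not tested with at least 10 counts in every library or in the filtered FPKM fits. Integrated stress response targets that were lower numbered 11 with log2(FPKM + 0.1) and 11 with log2(FPKM + 1) without a filter, against 7. In the other lists together, genes that were higher numbered 18, 18 and 16 in the FPKM fits (pseudocount 1, 0.1 and unfiltered), against 29, and genes that were lower numbered 7 without an expression filter and 4 to 9 when 1 library was left out, against 11. They numbered 4 without Sev replicate 1, 5 without control replicate 3 and 7 without control replicate 1, and the cause was not tested.

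The labels number the replicates 1 to 3 in both groups. Deviations of same-numbered libraries correlated at −0.0345, 0.00462 and 0.0598 over 18508 features, so the numbers were not taken as pairs, and control replicate 1 was closest to Sev replicate 2 (0.0832). With a replicate block, 7 of the 9 were higher, NUPR1 missed the threshold (0.49, edgeR adjusted p = 0.06), and calls over all features numbered 5228 higher and 5021 lower, against 6094 and 5920. At this depth a gene under 3 counts in a library, such as ADM2 in control, cannot be told from absent.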
